A study of Mus musculus with 24 samples.

Results

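The 45 genes described here belong to the amino acid response governed by the transcription factor ATF4 and to the unfolded protein response of the endoplasmic reticulum (ER). They were taken from the arrays by gene symbol, with 1 probe set per gene, the one with the highest mean over all 24 arrays. Of the 45 listed genes, 43 were found on the array, among 12393 named genes. Mthfd1l and Pycr1 were not matched. No measured value entered the choice of genes, but the list was drawn up with earlier results of these data known.

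Messenger RNA of C57BL/6 mouse blood progenitors was measured on 24 arrays in 7 groups, and no other allele or agent is named. Granulocyte monocyte progenitors (GMP), which give rise to neutrophils and monocytes, had been infected by spinoculation with a vector for MOZ-TIF2 (MT2, 4 arrays), NUP98-HOXA9 (NHA9, 3 arrays) or AML1-ETO (AE, 4 arrays), or with the empty GFP vector (GFP, 3 arrays). GFP-positive cells of these 4 groups were harvested 36 hours after infection. The groups without such an infection were LSK cells, the sorted fraction that holds the blood stem cells (titled HSC, 3 arrays), leukemic GMP of MOZ-TIF2 leukemia (L-GMP, labelled as leukemic stem cells, 3 arrays) and sorted normal GMP (4 arrays). MT2, NHA9 and AE are fusion oncogenes of acute myeloid leukemia. The sources used here do not tell whether replicate arrays stand for separate animals, cultures or leukemias, and give neither the promoter that drives the oncogenes nor the age of the mice. The p-values therefore cover only the spread among these samples, and that spread may be technical.

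Cells that run short of amino acids or load their ER with unfolded protein activate kinases that phosphorylate the translation factor eIF2 alpha. General translation then slows, while the messenger RNA of Atf4 is translated better. ATF4 protein switches on genes for amino acid synthesis, amino acid import and tRNA charging, together with regulators such as Ddit3 and Trib3 that shape the outcome of the stress. In parallel, the ER sensors IRE1 (Ern1) and ATF6 raise chaperones, folding enzymes and the machinery that removes misfolded proteins. IRE1 acts by splicing Xbp1 messenger RNA. The arrays read total messenger RNA, so neither translation of Atf4 nor splicing of Xbp1 was measured.

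Of the listed genes, 40 had at least 1 promoter in the RefSeq table (build GRCm38.p6, 250 bases before to 50 bases after each start, with 1 or more promoters a gene). The amino acid response element, which ATF4 binds together with C/EBP proteins, was searched as TGATGNAA on both strands. It was present for 8 of the 40 genes (20%), against 4.51% of 27025 genes. These were Asns, Chac1, Herpud1, Nupr1, Pycr1, Slc7a11, Trib3 and Vldlr. The ER stress element, CCAAT followed after 9 bases by CCACG, was present for 7 of the 40 genes (17.5%), against 0.137% of all genes. These were Calr, Canx, Creld2, Dnajc3, Hsp90b1, Hspa5 and Pdia6, all of them ER chaperones or folding enzymes. No gene held both elements. TGACGTG, the unfolded protein response element, was found in 1 of the 40 (2.5%), Hspa5, against 2.22% of all genes. A match describes the letters only, and a missing match says only that these letters are not in the window.

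The following stretches show the amino acid response element in capitals in 4 promoters whose genes lead the comparison of GFP with GMP below. Where the match lies on the opposite strand, the capitals read as its reverse complement. Asns lay at chr6:7693210-7693272 (minus strand), Chac1 at chr2:119351009-119351096 (plus strand), Nupr1 at chr7:126625533-126625620 (minus strand) and Slc7a11 at chr3:50443632-50443719 (minus strand).
Asns: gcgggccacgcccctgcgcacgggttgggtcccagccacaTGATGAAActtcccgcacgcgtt
Chac1: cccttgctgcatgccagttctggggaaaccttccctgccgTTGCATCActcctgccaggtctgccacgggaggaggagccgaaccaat
Nupr1: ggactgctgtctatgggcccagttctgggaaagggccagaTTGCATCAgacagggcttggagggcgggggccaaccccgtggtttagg
Slc7a11: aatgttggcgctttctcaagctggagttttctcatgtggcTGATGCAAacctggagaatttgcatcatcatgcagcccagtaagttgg
The Slc7a11 promoter held a second match, on the opposite strand, in the lower case letters to the right of the first.

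The ER stress element stands in capitals in 4 promoters of chaperones and folding enzymes described below. Each of the 4 passed in MT2 against AE, and Hsp90b1, Calr and Pdia6 in LSK against GMP. Hspa5 lay at chr2:34771985-34772083 (plus strand), Hsp90b1 at chr10:86705493-86705591 (minus strand), Calr at chr8:84847035-84847133 (minus strand) and Pdia6 at chr12:17266451-17266549 (plus strand).
Hspa5: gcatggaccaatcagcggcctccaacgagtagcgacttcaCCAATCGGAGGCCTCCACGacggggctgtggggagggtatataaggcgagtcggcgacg
Hsp90b1: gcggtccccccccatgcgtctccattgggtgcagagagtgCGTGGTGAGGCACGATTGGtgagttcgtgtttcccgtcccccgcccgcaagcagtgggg
Calr: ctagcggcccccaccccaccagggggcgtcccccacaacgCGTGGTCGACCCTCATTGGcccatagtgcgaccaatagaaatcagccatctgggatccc
Pdia6: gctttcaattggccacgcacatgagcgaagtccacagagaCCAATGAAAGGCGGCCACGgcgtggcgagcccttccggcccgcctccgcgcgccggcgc
In Hsp90b1 and Calr the match lies on the opposite strand, and Hsp90b1 held another one farther upstream that is not shown.

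Values below are log2 expression, the authors' array estimates. A difference between groups is the first group named minus the other, with its standard error (SE), and a gene passed where limma gave it a Benjamini-Hochberg adjusted p under 0.05 over all probe sets tested. A level of 60 (5.91 on the log2 scale) served as background. Probe sets were tested where at least 2 arrays of a compared group lay above it. Where the mean of a group lay under 60, only a lower bound of the fold is given, the mean of the other group over 60. Cbs, Slc7a1 and Ern1 lay under 60 in all groups and were not tested anywhere. Each array carried 46.1% to 48.3% of its probe sets over background, arrays within a group correlated at 0.946 to 0.996, and 0 pairs of arrays were identical.

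Markers were read in the same way. The mean of the GMP markers was 12.08 to 12.20 on GMP arrays, 11.38 to 11.92 on the 14 transduced arrays, 10.56 to 11.80 on L-GMP arrays and 10.18 to 11.01 on LSK arrays. The LSK markers averaged 8.70 to 8.99 on LSK arrays, against 5.81 to 6.65 on GMP arrays, although Mecom of that list averaged 3.97 in LSK and was under background. Markers of B and plasma cells, which have a large ER, averaged 4.82 to 5.59 on all arrays. Ebf1, Pax5, Cd79a and Prdm1 stood under background in all 7 groups. Cd79b (group means 6.87 to 8.19) and Sdc1 (6.09 to 6.59) stood over it in all 7, and Jchain only in L-GMP (6.57). L-GMP 1 stood apart: its Gapdh signal was 4.82 higher at the 3' than at the 5' end and its neutrophil markers averaged 11.02, against 3.58 and 3.08, and 7.82 and 7.29, on the other L-GMP arrays. The arrays' names carry 3 kinds of tag, whose meaning these sources do not give. Tag A covers all GFP arrays, MT2 1 to 3, NHA9 1 and 2, AE 1, LSK 1 and 2, GMP 1 to 3 and L-GMP 1.

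Atf4 had its 4 highest group means in the transduced groups, although AE and L-GMP lay within their spread of each other. It averaged 11.36 ± 0.17 in MT2 (SD, n = 4), 11.29 ± 0.27 in NHA9 (n = 3), 10.87 ± 0.37 in AE (n = 4), 11.25 ± 0.34 in GFP (n = 3), 10.39 ± 0.28 in LSK (n = 3), 10.82 ± 0.20 in L-GMP (n = 3) and 10.25 ± 0.23 in GMP (n = 4). MT2, NHA9 and GFP at the top of this order differed by less than their spread, as did LSK and GMP at its foot. Asns, asparagine synthetase, was likewise highest in the 4 transduced groups, with means of 10.74 in MT2, 10.44 in NHA9, 9.42 in AE, 10.20 in GFP, 7.49 in LSK, 8.91 in L-GMP and 7.56 in GMP. Other amino acid genes did not follow: Phgdh averaged 11.33 in GMP, against 10.41 in AE, and Chdh was highest in GMP. Over the 7 group means, the genes most like Atf4 were Asns (Pearson r = 0.99), Cth (0.96) and Mthfd2 (0.95). Those most like Asns were Atf4 (0.99), Mthfd2 (0.98) and Cth (0.98). These correlations describe 7 points, most of whose spread is the step between the transduced groups and the rest.

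**Figure D1:**
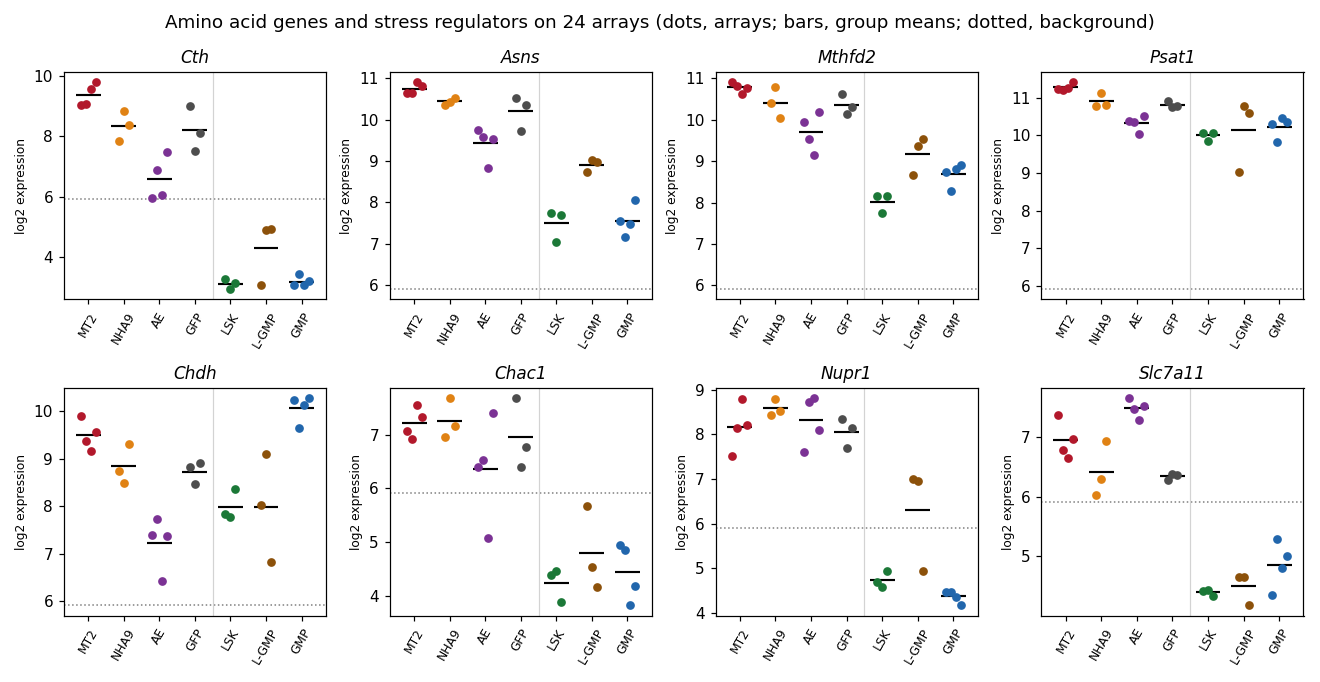
Log2 expression (vertical axes, each with its own range) of 8 genes on the 24 arrays, with 1 dot per array, a bar at each group mean and a dotted line at the background level of 60 (5.91). Cth lies under background on all LSK, L-GMP and GMP arrays and averages 9.36 in MT2, while Chdh is highest in GMP, where it averages 10.07.

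Infection with the empty vector was set against fresh GMP to see where the transduced cells start. Most regulators and some of the amino acid genes were higher in GFP than in GMP, among them Asns, Cth and Mthfd2. No ER chaperone passed on the probe sets used here. Of 40 members tested, 13 rose and 1 fell, that is 32.5% and 2.5%, against 8.77% of all genes tested that rose and 7.83% that fell. Among the 13, Cth, Nupr1, Trib3, Chac1, Sesn2, Slc7a11 and Vldlr lay under background on all GMP arrays. Being tested only through GFP, these genes could hardly have been called lower. The 13 and the 1 therefore do not measure a balance of directions. At the median, members differed by 0.36 and all genes by −0.05. The infection, the vector and the 36 hours cannot be told apart here, since all 3 separate GFP from GMP. In such bulk samples, more cells of an expressing type and more RNA per cell cannot be told apart either.

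Cth, cystathionine gamma-lyase, which makes cysteine from methionine sulfur, stood at 8.98, 7.50 and 8.11 in GFP, against 3.06, 3.43, 3.07 and 3.20 in GMP. All GMP arrays lay far under background and all GFP arrays well over it, so Cth was at least 4.9-fold higher in GFP (adjusted p = 1.86e-05). Asns, which makes asparagine and is the textbook ATF4 target, stood at 10.51, 9.73 and 10.35 in GFP, against 7.56, 7.17, 7.47 and 8.05 in GMP. The groups did not overlap, and the difference was 2.63 (SE 0.25, 6.21-fold, adjusted p = 0.000229). Mthfd2, a mitochondrial folate enzyme, stood at 10.63, 10.14 and 10.32 in GFP, against 8.75, 8.28, 8.82 and 8.90 in GMP. It was 3.2-fold higher in GFP (1.68, SE 0.20, adjusted p = 0.000709). Psph, which makes the last step to serine, rose by 1.20 (SE 0.28, adjusted p = 0.0188). The other serine enzymes did not pass, with differences of −0.36 for Phgdh, 0.60 for Psat1, −0.22 for Shmt1 and −0.01 for Shmt2. Other probe sets did pass: the 3 of Shmt1 read −0.63, −0.77 and −0.92 (adjusted p = 0.0208, 0.0322 and 0.00599), and the second of Psat1 read 0.91 (adjusted p = 0.0383).

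Among the regulators 6 of 8 rose. Nupr1, a small nuclear protein induced by stress, stood at 8.34, 7.69 and 8.13 in GFP, against 4.48, 4.47, 4.36 and 4.17 in GMP. It was under background on every GMP array and at least 4.43-fold higher in GFP (adjusted p = 5.6e-06). Trib3, a pseudokinase that ATF4 and CHOP induce and that dampens ATF4, stood at 8.73, 7.36 and 8.18 in GFP, against 5.51, 5.90, 5.54 and 5.58 in GMP. Its groups did not overlap, with at least a 4.53-fold higher level in GFP (adjusted p = 0.000709). Chac1, which degrades glutathione, was at least 2.05-fold higher in GFP (adjusted p = 0.00191), and Sesn2, a leucine sensor that restrains mTORC1, at least 1.49-fold (adjusted p = 0.0031). Atf4 itself stood at 11.47, 10.86 and 11.43 in GFP, against 10.12, 10.59, 10.18 and 10.10 in GMP. That was a 2.01-fold difference (1.00, SE 0.20, adjusted p = 0.0105), and each GFP array lay over each GMP array. Atf5, a related factor, rose by 0.87 (SE 0.24, adjusted p = 0.0352). Ddit3, which encodes CHOP, did not pass (0.37, SE 0.19, adjusted p = 0.226), with 7.44, 6.91 and 7.28 in GFP and 6.99, 6.57, 7.06 and 6.76 in GMP. Ppp1r15a (GADD34), which reverses eIF2 alpha phosphorylation, differed by −0.26 and did not pass.

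The cystine importer and the lipoprotein receptor rose as well. Slc7a11, the importer, stood at 6.28, 6.39 and 6.36 in GFP, against 4.35, 5.29, 4.80 and 5.00 in GMP, at least a 1.35-fold difference (adjusted p = 0.0021). Vldlr, a lipoprotein receptor induced by ATF4, was at least 2.71-fold higher in GFP (adjusted p = 0.00314). The only member that fell was Chdh, choline dehydrogenase of the mitochondrion. It stood at 8.82, 8.46 and 8.91 in GFP, against 10.24, 9.64, 10.14 and 10.27 in GMP. No GFP array reached the lowest GMP array, and Chdh was 2.54-fold lower in GFP (−1.34, SE 0.20, adjusted p = 0.00233).

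On the probe sets used here, none of 13 ER chaperones and folding enzymes passed in this comparison by limma. Their differences ran from −0.42 to 0.34, with a median of 0.00. Another probe set of Dnajc3, a cochaperone, did pass as lower (−0.58, adjusted p = 0.0483). Hspa5 (BiP), the master chaperone of the ER, stood at 13.17, 13.24 and 12.89 in GFP, against 13.12, 13.10, 12.96 and 13.03 in GMP (0.05, SE 0.14, adjusted p = 0.866). The interval of its difference ran from −0.28 to 0.37. Xbp1, the transcription factor that IRE1 activates, did rise, with 11.85, 11.88 and 11.90 in GFP against 11.38, 10.81, 11.32 and 11.17 in GMP (0.71, SE 0.17, adjusted p = 0.0214). All 3 GFP arrays lay over all 4 GMP arrays. The 3 genes of ER-associated degradation, Herpud1, Edem1 and Sel1l, lay above 0 (0.41 to 0.79) without passing on these probe sets. The other probe set of Edem1 did pass (0.70, adjusted p = 0.035).

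Of the 7 members on the array whose promoter holds the amino acid response element, 6 rose in GFP, Herpud1 being the exception. Among the 31 members on the array with a promoter without it, 28 were tested, of which 6 rose and 1 fell. Nupr1, Trib3, Chac1, Slc7a11 and Vldlr lay under background on all GMP arrays and were tested only through GFP. They could hardly have been called lower, so these counts do not measure an effect of the element. None of the 7 members with the ER stress element passed on the probe sets used here. Of the 14 calls 10 held with each array left out in turn. The calls of Atf4, Psph, Xbp1 and Atf5 were lost without some arrays, GFP 1 among them for all 4. Atf4 was also lost with the mean of its probe sets, and Atf5 within tag A and without the filter on low values. Within tag A 16 members were called, 14 higher and 2 lower. The methods' t-test, the unequal-variance test that the design text names, called 5 of 14 after adjustment. Macrophage markers averaged 7.92 to 8.10 in GFP and 6.77 to 7.36 in GMP, 5 of 5 tested being higher, with C1qa and Mrc1 under background in both groups. Mast cell and basophil markers averaged 5.26 to 5.30 in GFP and 5.97 to 6.26 in GMP, 2 of 2 tested being lower, and of 7 neutrophil markers 2 were higher and 2 lower. The part of such cells in the differences was not tested.

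Other genes of the amino acid response moved in the same comparison. Of 13 tested, 8 rose and 0 fell, with a median difference of 0.98. The 4 with the smallest adjusted p were Ddit4, an inhibitor of mTORC1 (4.23, SE 0.29, 18.8-fold, adjusted p = 3.35e-05), the growth factor gene Vegfa (2.04, SE 0.21, adjusted p = 0.000339), Cebpb, a partner of ATF4 (1.92, SE 0.21, adjusted p = 0.000447), and Atf3, a related factor that lay under background in GMP (at least 3.77-fold higher in GFP, adjusted p = 0.0052). Aminoacyl-tRNA synthetases, which charge tRNAs, showed 3 of 18 higher (Nars, Gars and Cars). Of 31 other ER genes, 2 rose and 1 fell. Ero1a, an oxidase of the ER, rose by 2.37 (SE 0.19, adjusted p = 8.6e-05), Sec24d, a coat protein of ER export, rose by 0.55, and Pdia5, a disulfide isomerase, fell by 0.81. Of 3 folate genes Mthfd1 (−0.95, adjusted p = 0.00404) and Gcsh (−0.82, adjusted p = 0.0208) fell, and of 5 genes around the eIF2 alpha kinases Ppp1r15b rose by 0.55.

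**Figure D2:**
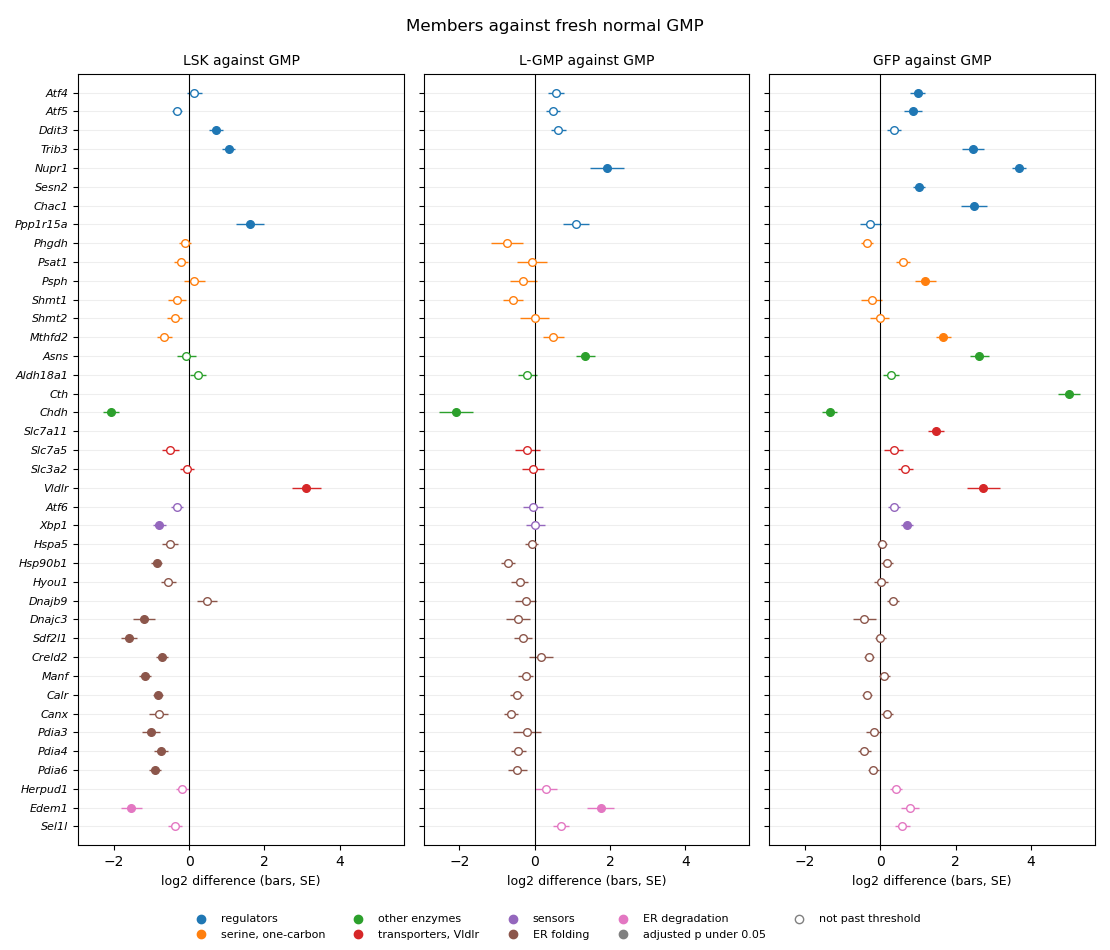
Log2 difference (horizontal axes) of each tested member in LSK, in L-GMP and in GFP against fresh GMP, 1 row per gene, coloured by role, with bars of 1 SE and filled dots where the adjusted p was under 0.05. In LSK the ER folding genes lie left of 0 except Dnajb9, while in GFP they lie between −0.42 and 0.34 and Asns at 2.63. Points of genes under background in GMP, such as Cth, Nupr1 and Vldlr, do not measure a fold.

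MT2 against GFP asked what MOZ-TIF2 alone does within 36 hours. Of 40 members 7 rose and 0 fell (17.5% and 0%), against 8.8% and 3.22% of all genes tested. The median difference was 0.10 for the members and 0.06 for all genes. All 7 were enzymes of amino acid metabolism or the cystine importer. On the probe sets used here, no regulator, sensor, chaperone or degradation gene passed. The other probe set of Edem1, a degradation gene, did pass (0.82, adjusted p = 0.0275). So did the mean of its probe sets (0.67, adjusted p = 0.0438).

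The serine pathway contributed 3 genes. Phgdh, which commits glucose carbon to serine, stood at 11.73, 11.65, 11.56 and 11.36 in MT2, against 11.00, 10.78 and 11.12 in GFP. Its groups did not overlap, and the difference was 0.61 (SE 0.13, 1.53-fold, adjusted p = 0.0195). Psat1, the next enzyme, stood at 11.24, 11.21, 11.26 and 11.41 in MT2, against 10.92, 10.74 and 10.79 in GFP (0.46, SE 0.11, adjusted p = 0.0253). The lowest MT2 array lay over the highest GFP array for both. Shmt2, which moves the serine carbon to folate in mitochondria, stood at 9.62, 9.73, 9.82 and 9.94 in MT2, against 9.47, 8.64 and 9.13 in GFP, without overlap (0.70, SE 0.18, adjusted p = 0.035). Psph (0.48, adjusted p = 0.0616) and Mthfd2 (0.42, adjusted p = 0.074) did not pass, but the other probe set of Mthfd2 did (0.76, adjusted p = 0.043). Shmt1, the cytosolic counterpart of Shmt2, read −0.34 on the probe set used here (adjusted p = 0.27), but its 3 other probe sets read 0.52, 0.55 and 0.69, each with an adjusted p under 0.05, so its direction depends on the probe set.

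Aldh18a1, which starts proline synthesis, had the smallest adjusted p. It stood at 10.03, 9.98, 10.04 and 10.26 in MT2, against 9.58, 9.13 and 9.45 in GFP (0.69, SE 0.13, 1.61-fold, adjusted p = 0.0153). Chdh stood at 9.89, 9.38, 9.16 and 9.56 in MT2, against 8.82, 8.46 and 8.91 in GFP, 1.7-fold higher (0.76, SE 0.18, adjusted p = 0.026). Every MT2 array lay over every GFP array for both genes. Cth stood at 9.03, 9.05, 9.57 and 9.78 in MT2, against 8.98, 7.50 and 8.11 in GFP, the largest difference of the members (1.16, SE 0.31, 2.23-fold, adjusted p = 0.0396). The groups did not overlap, although GFP 1 lay just under the lowest MT2 array. Slc7a11 rose by 0.61 (SE 0.16, adjusted p = 0.0398).

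Asns stood at 10.63, 10.63, 10.90 and 10.82 in MT2, against 10.51, 9.73 and 10.35 in GFP (0.55, SE 0.18), and did not pass (adjusted p = 0.0727). Atf4, with 11.36, 11.32, 11.58 and 11.16 in MT2 against 11.47, 10.86 and 11.43 in GFP, differed by 0.10 (interval −0.27 to 0.48, adjusted p = 0.706). Ddit3 differed by 0.36 (adjusted p = 0.324), Xbp1 by −0.16 (adjusted p = 0.365) and Hspa5 by 0.03 (adjusted p = 0.899). Atf4, Ddit3 and Hspa5 overlapped between the groups, while each MT2 array lay just under the GFP arrays for Xbp1.

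None of the 7 calls held with every array left out: without GFP 2 no member was called, without MT2 1 only 1, without MT2 4 or GFP 3 only 3, and without GFP 1 only 4. The run without MT2 4 is also the run within tag A, and its 3 calls were Aldh18a1, Phgdh and Psat1. With the tag as a factor or the methods' t-test 0 members were called. Mature neutrophil markers averaged 8.94 to 9.78 in MT2 and 10.33 to 10.51 in GFP, 4 of 7 tested being lower, and Mmp9 of that list lay under background in both. Their part in the differences was not tested.

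Beyond the members, 7 of 18 aminoacyl-tRNA synthetases rose and 0 fell in MT2 (median 0.38). Those with the smallest adjusted p were Aars (0.54, adjusted p = 0.0172), Iars (0.55, adjusted p = 0.0176), Farsa (0.58, adjusted p = 0.0214) and Eprs (0.55, adjusted p = 0.031). Of 5 genes around the eIF2 alpha kinases, Ppp1r15b, the constitutive eIF2 alpha phosphatase subunit, rose by 0.74 (SE 0.14, adjusted p = 0.0129), and Eif2ak2 (PKR), a kinase activated by double-stranded RNA, by 0.37 (adjusted p = 0.0395). Of 14 other amino acid response genes 3 rose, namely Gpt2 and Got1, aminotransferases, and Slc1a5, the glutamine importer. Gpt2 was at least 2.2-fold higher in MT2. Gcsh and Mthfd1 rose among 3 folate genes. None of 31 other ER genes passed, at a median of 0.05.

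NHA9 against GFP gave 0 calls of 40 in either direction, where 0.173% of all genes tested rose and 0.0145% fell. At an unadjusted p under 0.05 limma listed 11 members and the methods' t-test 6, while that test called 0 after adjustment as well. Of all 10981 probe sets tested, limma listed 1154 at that unadjusted level. At the median, members differed by 0.08 and all genes by 0.06. All 8 regulators lay above 0 (0.02 to 0.52), although Ppp1r15a read −0.05 with quantile normalization, and all 13 ER folding genes lay below 0 (−0.63 to −0.01). Hspa5 stood at 12.50, 12.77 and 12.43 in NHA9, against 13.17, 13.24 and 12.89 in GFP, a difference of −0.53 (SE 0.16) that did not pass (adjusted p = 0.313) although the groups did not overlap. Atf4 differed by 0.04 (adjusted p = 0.956), Ddit3 by 0.39 (adjusted p = 0.641), Asns by 0.24 (adjusted p = 0.674) and Xbp1 by 0.08 (adjusted p = 0.835). Within tag A, which here leaves out only NHA9 3, 2 folding genes passed as lower. They were Sdf2l1 (−0.69, adjusted p = 0.0456) and Pdia3 (−0.95, adjusted p = 0.0484). No gene of the other lists passed. In all the comparisons with GFP the same 3 GFP arrays serve as control, so their values are not independent of each other.

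AE against GFP called members in both directions. Of 40 members 3 rose and 5 fell (7.5% and 12.5%), against 9.68% and 2.43% of all genes tested. Only the lower share exceeded that of all genes. The median difference was −0.36 for the members and 0.10 for all genes, a shift of all genes that quantile normalization brought to −0.01 with the members at −0.48. The enzymes for cysteine and choline and 3 ER folding genes fell, while the cystine importer, Ppp1r15a and Xbp1 rose.

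Slc7a11 stood at 7.65, 7.47, 7.29 and 7.52 in AE, against 6.28, 6.39 and 6.36 in GFP. The AE arrays lay about 1 unit over the GFP arrays with little spread, and the difference was 1.14 (SE 0.14, 2.21-fold, adjusted p = 0.0019). Ppp1r15a stood at 7.54, 7.50, 7.85 and 7.55 in AE, against 6.89, 6.48 and 6.52 in GFP (0.97, SE 0.16, 1.96-fold, adjusted p = 0.00634). Xbp1 stood at 12.23, 12.56, 12.46 and 12.35 in AE, against 11.85, 11.88 and 11.90 in GFP (0.52, SE 0.14, adjusted p = 0.039). All AE arrays lay over all GFP arrays for the 3 genes. The other Xbp1 probe sets read 0.55, 0.58 and 0.68, of which 2 passed. The Xbp1 call held in only 1 of 7 runs with an array left out, that without AE 1. It was also lost with the tag as a factor and with the replicate block.

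Chdh stood at 7.39, 7.73, 6.43 and 7.38 in AE, against 8.82, 8.46 and 8.91 in GFP, 2.83-fold lower (−1.50, SE 0.28, adjusted p = 0.00985). Cth stood at 5.95, 6.88, 6.04 and 7.48 in AE, against 8.98, 7.50 and 8.11 in GFP, 3.06-fold lower (−1.61, SE 0.42, adjusted p = 0.038). AE 4 lay just under GFP 2 for Cth, and the call was lost without any 1 GFP array and without AE 2 or AE 3. Asns, at 9.74, 9.57, 8.84 and 9.54 in AE against 10.51, 9.73 and 10.35 in GFP, differed by −0.77 (SE 0.25, adjusted p = 0.0775) with an overlap of AE 1 and GFP 2. All 6 serine and one-carbon enzymes lay below 0 (−1.07 to −0.35), without a call on the probe sets used here. The other probe set of Psat1 did pass (−1.04, adjusted p = 0.0474). With the mean of probe sets, Psat1 (−0.77, adjusted p = 0.016) and Mthfd2 (−0.73, adjusted p = 0.0343) passed. Atf4 differed by −0.38 (SE 0.23, adjusted p = 0.307) and Ddit3 by 0.57 (SE 0.20, adjusted p = 0.0965).

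Hsp90b1 (GRP94), a chaperone of the ER for receptors and integrins, stood at 9.61, 10.16, 10.17 and 10.15 in AE, against 11.13, 11.25 and 10.90 in GFP, 2.11-fold lower (−1.08, SE 0.18, adjusted p = 0.00669). Sdf2l1, a cochaperone of BiP, stood at 6.27, 7.46, 7.11 and 7.55 in AE, against 8.02, 8.23 and 8.27 in GFP (−1.07, SE 0.28, adjusted p = 0.039). Canx, the lectin chaperone calnexin, stood at 10.07, 10.26, 9.71 and 10.37 in AE, against 11.12, 11.45 and 11.04 in GFP (−1.10, SE 0.19, adjusted p = 0.0075). No AE array of the 3 genes reached a GFP array, but the other Canx probe sets read −0.61 (adjusted p = 0.197) and 0.01 (adjusted p = 0.969). Hspa5 stood at 11.57, 12.73, 12.61 and 12.77 in AE, against 13.17, 13.24 and 12.89 in GFP (−0.68, SE 0.28, adjusted p = 0.144). All 13 folding genes lay below 0, from −1.10 to −0.11. Xbp1 messenger RNA and these genes thus lay on opposite sides of 0, although the Xbp1 call depended on single arrays.

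AE 1 was the lowest AE array for several folding genes, and without it 13 members were called, 4 higher and 9 lower. Sesn2 (0.53, adjusted p = 0.0258) was then among the higher ones, and Psat1 (−0.52, adjusted p = 0.0331), Shmt1 (−1.39, adjusted p = 0.00228), Asns (−0.88, adjusted p = 0.0305) and Manf (−0.46, adjusted p = 0.0235) among the lower. The calls of Slc7a11, Ppp1r15a, Chdh, Hsp90b1 and Canx held with each array left out, and they were the 5 that remained without AE 3 or without any 1 GFP array. The methods' t-test called none of the 8 after adjustment. Within tag A, where AE 1 is the only AE array and its spread is borrowed from the others, 17 members were called, and with the tag as a factor 14. Macrophage markers averaged 8.14 to 9.05 in AE and 7.92 to 8.10 in GFP, 3 of 5 tested being higher, with C1qa and Mrc1 under background in both. In this list Cd14 averaged 10.52 in AE and 7.80 in GFP, but C1qb 7.51 in AE and 7.92 in GFP. GMP markers averaged 11.38 to 11.92 in AE and 11.75 to 11.86 in GFP, 3 of 7 being lower and 1, Cd34, higher. Of 2 mast cell markers tested Cpa3 was higher, at 7.87 in AE and 6.14 in GFP, and of 3 B and plasma cell markers 1 was higher. Their part was not tested. Of the other lists, Tars (−0.87, adjusted p = 0.0276) and Nars (−0.70, adjusted p = 0.037) fell among 18 tRNA synthetases, Ddit4 rose (0.83, adjusted p = 0.0284) and Cebpg and Jdp2 fell among 13 amino acid response genes, Rpn1 fell among 31 ER genes (−0.54, adjusted p = 0.0289), and none of 5 kinase genes and none of 3 folate genes passed.

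**Figure D3:**
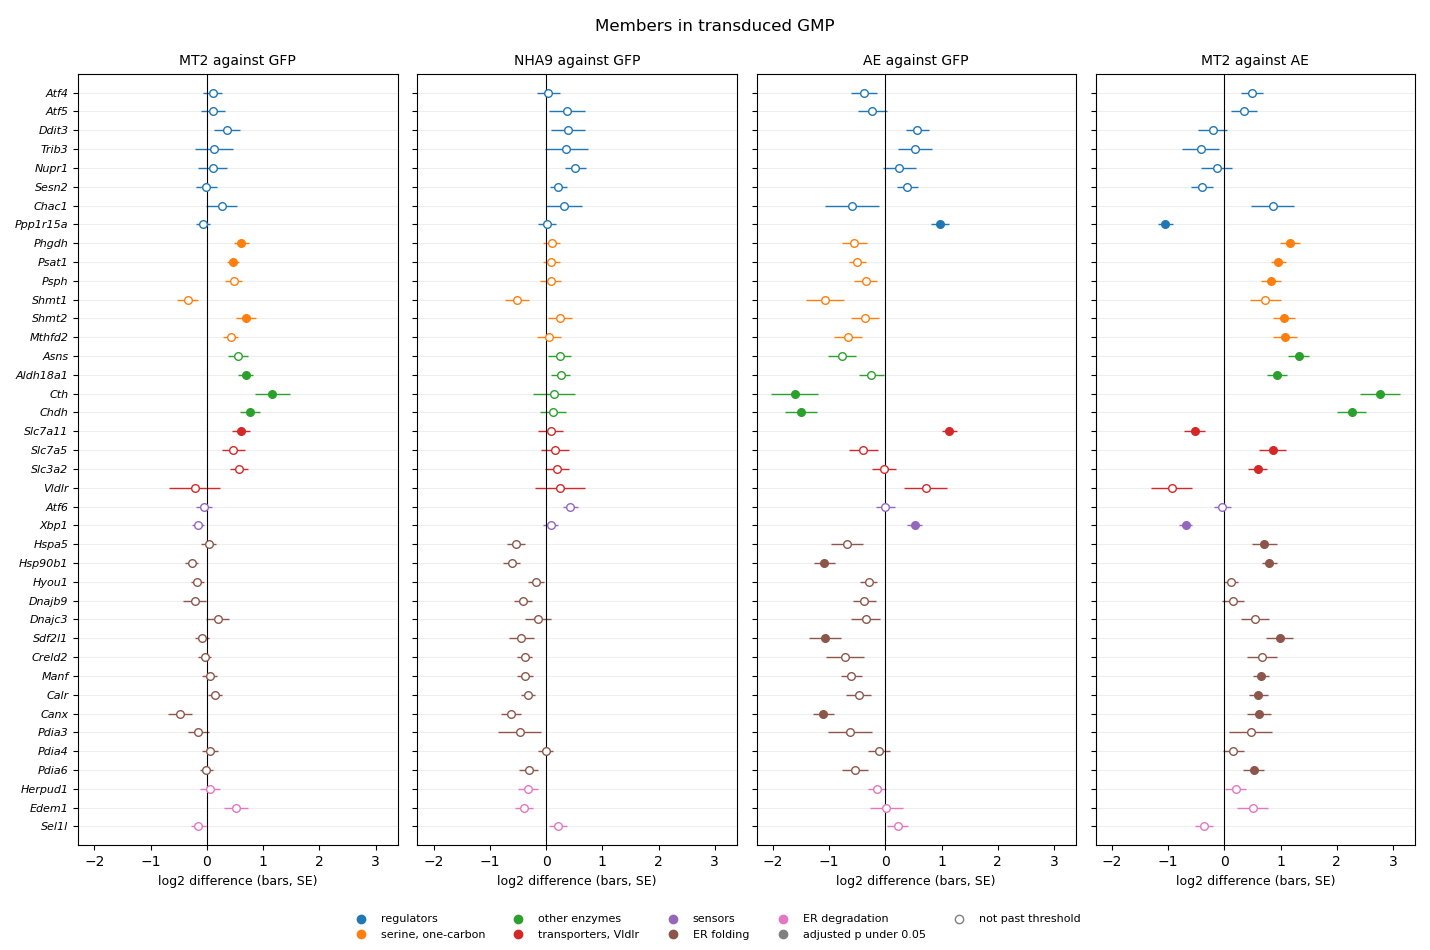
Log2 difference (horizontal axes, on a shared scale) of the 40 tested members in MT2, NHA9 and AE against GFP and in MT2 against AE, 1 row per gene, coloured by role, with bars of 1 SE and filled dots where the adjusted p was under 0.05. The amino acid enzymes lie right of 0 in MT2 except Shmt1 and left of 0 in AE, and in MT2 against AE the largest value is 2.77, for Cth.

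The oncogenes were then set against each other in 1 fit to the 14 transduced arrays, which shares 1 spread. MT2 against AE gave the most calls of any comparison: 18 of 40 members rose and 3 fell (45% and 7.5%), against 12.1% and 17.9% of all genes tested. The median difference was 0.56 for the members and −0.03 for all genes. All 4 tested enzymes for asparagine, proline, cysteine and choline rose, as did 5 of 6 serine and one-carbon enzymes, 2 of 4 transport genes and 7 of 13 folding genes.

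Chdh was 4.8-fold higher in MT2 than in AE (2.26, SE 0.26, adjusted p = 3.5e-05) and Cth 6.83-fold (2.77, SE 0.36, adjusted p = 0.000105). With the values given above, each MT2 array lay over each AE array for both genes. Asns was 2.5-fold higher in MT2 (1.32, SE 0.19, adjusted p = 0.000254), Phgdh 2.24-fold (1.16, SE 0.18, adjusted p = 0.000315) and Psat1 1.94-fold (0.96, SE 0.13, adjusted p = 0.000116). On the AE arrays Phgdh stood at 10.67, 10.11, 10.03 and 10.85 and Psat1 at 10.39, 10.34, 10.04 and 10.52. The groups did not overlap for these genes either. Shmt2, Mthfd2, Psph and Aldh18a1 rose by 0.83 to 1.08. Slc7a5 and Slc3a2, which pair as the large neutral amino acid exchanger, rose by 0.86 and 0.59. Atf4 itself did not pass (0.49, SE 0.19, adjusted p = 0.0749), with an overlap of MT2 4 and AE 1, and Ddit3 differed by −0.21 (adjusted p = 0.596).

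Hsp90b1 stood at 10.79, 10.80, 10.75 and 10.95 in MT2, against 9.61, 10.16, 10.17 and 10.15 in AE (0.80, SE 0.14, adjusted p = 0.000789). Hspa5 stood at 13.08, 12.94, 13.09 and 13.41 in MT2, against 11.57, 12.73, 12.61 and 12.77 in AE (0.71, SE 0.22, adjusted p = 0.0273). Both sets of MT2 arrays lay wholly over the AE arrays. Sdf2l1 (0.98), Manf (0.65), a secreted ER survival factor, Calr (0.60), the lectin chaperone calreticulin, Canx (0.62) and Pdia6 (0.52), a disulfide isomerase, passed as well. Of the 7 members with the ER stress element 5 rose. Of 28 tested members with a promoter without it, 10 rose and 3 fell. All 7 with the element are folding genes, so element and role cannot be told apart here. Of the 7 with the amino acid response element 1 rose (Asns) and 1 fell (Slc7a11). Of 28 tested members with a promoter without that element, 14 rose and 2 fell. Lower in MT2 were 3 members. Ppp1r15a stood at 6.54, 6.48, 6.70 and 6.52 in MT2, against 7.54, 7.50, 7.85 and 7.55 in AE, 2.07-fold lower (−1.05, SE 0.13, adjusted p = 6.32e-05). Xbp1 stood at 11.50, 11.76, 11.77 and 11.83 in MT2, against 12.23, 12.56, 12.46 and 12.35 in AE (−0.69, SE 0.11, adjusted p = 0.000559). Both were lower on each MT2 array than on any AE array. Slc7a11 fell by 0.53 (SE 0.19, adjusted p = 0.0459), with overlapping groups.

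Of the 21 calls 17 held with each array left out, the exceptions being Hspa5, Canx, Slc7a11 and Pdia6. The methods' t-test called 5 after adjustment. Among the tRNA synthetases 13 of 18 rose and 0 fell, led by Tars (1.43, adjusted p = 5.7e-05), Iars (0.99, adjusted p = 0.000258), Gars (1.00, adjusted p = 0.000306) and Nars (1.07, adjusted p = 0.000337). Other amino acid response genes had 5 of 14 higher and 2 lower, with Slc1a5 (1.19), Gpt2 (1.50) and Cebpg (0.59) among the higher and Cebpb (−0.70) among the lower. Of 31 other ER genes 5 rose, among them Rpn1 (0.68), Ssr1 (0.71) and Stt3a (0.63), and 2 fell, Syvn1 (−0.37) among them. Ppp1r15b rose by 0.77 and Mthfd1 by 0.57. Markers of other cells moved here too. Mature neutrophil markers averaged 8.94 to 9.78 in MT2 and 10.11 to 10.76 in AE, 5 of 7 being lower and Mmp9 under background in both. Macrophage markers averaged 7.48 to 8.14 in MT2 and 8.14 to 9.05 in AE, 2 of 5 being lower. GMP markers averaged 11.72 to 11.84 in MT2 and 11.38 to 11.92 in AE, 5 of 7 being higher and 2 lower. Of 3 B and plasma cell markers 2 were lower and of 2 mast cell markers 1. Their part in the differences was not tested.

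NHA9 against AE called 4 of 40 members higher and 3 lower (10% and 7.5%), against 3% and 5.1% of all genes tested. Chdh stood at 8.74, 8.48 and 9.32 in NHA9 and was 3.07-fold higher than in AE (1.62, SE 0.28, adjusted p = 0.00236). Asns stood at 10.36, 10.42 and 10.53 in NHA9 and was 2.02-fold higher (1.02, SE 0.21, adjusted p = 0.00833). Neither gene overlapped with its AE arrays. Cth, at 7.84, 8.82 and 8.36 in NHA9, was 3.37-fold higher (1.75, SE 0.39, adjusted p = 0.0132), and Psat1, at 10.79, 11.13 and 10.80, 1.5-fold (0.58, SE 0.14, adjusted p = 0.0171). Ppp1r15a, at 6.76, 6.72 and 6.49 in NHA9 (−0.95, adjusted p = 0.000742), Slc7a11, at 6.03, 6.30 and 6.94 (−1.06, adjusted p = 0.00499), and Xbp1, at 12.07, 11.85 and 11.95 (−0.44, adjusted p = 0.0395), fell, and none overlapped with AE. Atf4 (0.42, adjusted p = 0.264), Ddit3 (−0.17, adjusted p = 0.799) and Hspa5 (0.15, adjusted p = 0.798) did not pass. Of the 7 calls 4 held with each array left out, and there were 11 without AE 1 or AE 4, 4 without NHA9 2 and 0 with the methods' t-test. Of the 4 that held, Ppp1r15a, Chdh and Asns were lost with the tag as a factor. AE 2, AE 3 and AE 4 carry a tag that no NHA9 array has, so tag and oncogene are hardly separable here. Within tag A 12 members were called, AE 1 again standing alone. Among the other lists, Tars (0.92), Iars (0.62) and Gars (0.60) rose of 18 synthetases, Cebpg (0.64) and Jdp2 (0.95) rose of 14 amino acid response genes, and of 31 ER genes Dnajc10 (0.81) rose and Ssr4 (−0.52) fell.

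MT2 against NHA9 called 0 of 40 members on the probe sets used here, where 3.38% of all genes tested rose and 4.65% fell. Another probe set did pass for Phgdh (0.59, adjusted p = 0.0218), Shmt1 (0.52, adjusted p = 0.0302) and Edem1 (0.90, adjusted p = 0.0349). With the mean of probe sets, Phgdh, Psat1, Mthfd2 and Edem1 passed as higher. At an unadjusted p under 0.05 limma listed 15 members and the methods' t-test 13. Of all 11171 probe sets tested, limma listed 2672 at that unadjusted level. All 13 folding genes and all 6 serine and one-carbon enzymes lay above 0, at medians of 0.33 and 0.39, although Hyou1 read −0.04 with quantile normalization. Cth differed by 1.02, the largest difference, without passing. Without MT2 3 or NHA9 3 there was 1 call. Atf4 differed by 0.07 (adjusted p = 0.9), Asns by 0.31 (adjusted p = 0.41), Ddit3 by −0.04 (adjusted p = 0.962), Xbp1 by −0.24 (adjusted p = 0.241) and Hspa5 by 0.56 (adjusted p = 0.169). Within tag A, with 3 MT2 and 2 NHA9 arrays, 10 members were called, all higher, among them Edem1 (0.80, adjusted p = 0.0141), Sdf2l1 (0.54, adjusted p = 0.0188), Chdh (0.86, adjusted p = 0.0229) and Phgdh (0.49, adjusted p = 0.0269). Of the other lists, Ppp1r15b (0.63), Serp1 (0.68), Ssr1 (0.59) and Slc1a5 (0.89) rose and Dnajc10 (−0.61) and Cebpb (−0.55) fell.

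With the 11 oncogene arrays joined against GFP, 0 of 40 members passed, and 0% of all genes tested rose and 0% fell. The 4 members at an unadjusted p under 0.05 by limma, or 6 by the methods' t-test, did not pass after adjustment by either test. Nor did any gene of the other lists. Of all 11632 probe sets tested, limma listed 1250 at that unadjusted level. Asns shows what the joined class holds: 8.84 was its lowest value, the median 10.42 and 10.90 its highest in the oncogene arrays, against 10.51, 9.73 and 10.35 in GFP (−0.02, SE 0.36, adjusted p = 0.99). Its oncogene values straddled those of GFP. Atf4 differed by −0.09 (adjusted p = 0.895), Ddit3 by 0.44 (adjusted p = 0.501), Xbp1 by 0.15 (adjusted p = 0.784) and Hspa5 by −0.38 (adjusted p = 0.589). Hsp90b1 differed by −0.66 (adjusted p = 0.374), but passed when the 3 group means were averaged in the fit to 14 arrays (−0.65, adjusted p = 0.0257).

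LSK against GMP set the fraction with stem cells against committed progenitors, and here the ER genes were lower. Of 35 members tested 4 rose and 12 fell (11.4% and 34.3%), against 11.2% and 5.27% of all genes tested. At the median, members differed by −0.38 and all genes by 0.06. Of 13 folding genes 9 fell, as did Edem1, Xbp1 and Chdh, while Ddit3, Trib3, Ppp1r15a and Vldlr rose.

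Sdf2l1 stood at 6.26, 6.32 and 7.11 in LSK, against 8.38, 8.15, 8.15 and 7.99 in GMP, 3.04-fold lower (−1.60, SE 0.22, adjusted p = 0.00225). Manf stood at 8.83, 8.87 and 9.14 in LSK, against 10.29, 9.88, 10.02 and 10.29 in GMP (−1.17, SE 0.17, adjusted p = 0.00249). Calr stood at 12.28, 12.32 and 12.36 in LSK, against 13.13, 13.21, 13.12 and 13.11 in GMP (−0.82, SE 0.13, adjusted p = 0.00374). The 3 genes lay lower on each LSK array than on any GMP array. Hsp90b1 stood at 10.04, 10.08 and 10.03 in LSK, against 11.05, 10.85, 10.97 and 10.77 in GMP (−0.86, SE 0.14, adjusted p = 0.00403). Pdia6, Creld2, Pdia3, Dnajc3 and Pdia4, folding enzymes and cochaperones, fell by 0.72 to 1.19. Hspa5, at 12.10, 12.52 and 13.01 in LSK against 13.12, 13.10, 12.96 and 13.03 in GMP, did not pass (−0.51, SE 0.21, adjusted p = 0.148), and LSK 3 overlapped with GMP. Dnajb9 was the folding gene above 0 (0.47), without a call.

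Xbp1 stood at 10.26, 10.41 and 10.46 in LSK, against 11.38, 10.81, 11.32 and 11.17 in GMP (−0.79, SE 0.18, adjusted p = 0.0165). Edem1, which hands misfolded glycoproteins to degradation, stood at 6.61, 6.65 and 7.43 in LSK, against 8.59, 7.84, 8.50 and 8.81 in GMP, 2.9-fold lower (−1.54, SE 0.28, adjusted p = 0.0068). Chdh stood at 7.83, 7.78 and 8.36 in LSK, against 10.24, 9.64, 10.14 and 10.27 in GMP, 4.24-fold lower (−2.08, SE 0.21, adjusted p = 0.000532). For all 3 genes the groups lay apart.

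Vldlr stood at 7.52, 8.65 and 6.98 in LSK, against 4.28, 4.17, 5.09 and 4.87 in GMP. It was under background on each GMP array and at least 3.51-fold higher in LSK (adjusted p = 0.00125). Trib3 was at least 1.71-fold higher (adjusted p = 0.00381), at 6.62, 6.92 and 6.51 in LSK. Ppp1r15a stood at 7.93, 8.24 and 9.32 in LSK, against 6.94, 7.57, 6.75 and 6.30 in GMP (1.61, SE 0.37, 3.04-fold, adjusted p = 0.0194). Ddit3 stood at 7.40, 7.53 and 7.76 in LSK, against 6.99, 6.57, 7.06 and 6.76 in GMP (0.72, SE 0.18, adjusted p = 0.0243). These regulators rose with Atf4 at 10.30, 10.17 and 10.70 in LSK, against 10.12, 10.59, 10.18 and 10.10 in GMP (0.14, SE 0.19, adjusted p = 0.652), and Asns at 7.74, 7.05 and 7.69 in LSK, against 7.56, 7.17, 7.47 and 8.05 in GMP (−0.07, SE 0.25, adjusted p = 0.877). Cth, Nupr1, Chac1, Sesn2 and Slc7a11 lay under background in both groups. No serine enzyme passed.

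Of the 7 members with the ER stress element 5 fell, all but Canx and Hspa5. Of 24 tested members with a promoter without it, 6 fell and 4 rose. All 7 with the element are folding genes, so element and role cannot be told apart here. Of the 16 calls 9 held with each array left out, namely Chdh, Vldlr, Sdf2l1, Manf, Calr, Trib3, Hsp90b1, Pdia6 and Edem1, and the methods' t-test called 6 members. Without LSK 2 there were 9 calls, and without LSK 1 or GMP 1 there were 10. The calls of Xbp1, Ppp1r15a, Dnajc3 and Ddit3 were also lost within tag A. Other ER genes moved the same way: of 31 tested, 19 fell and 0 rose, at a median of −0.65. They were led by P4hb (−1.19, adjusted p = 0.00113), Pdia5 (−1.42, adjusted p = 0.00151), Ssr4 (−1.10, adjusted p = 0.00233) and Ddost (−1.22, adjusted p = 0.00249), which serve disulfide formation, translocation and glycosylation. Of 18 tRNA synthetases Nars fell, of 13 other amino acid response genes Ddit4 rose (2.23, adjusted p = 0.000722), and none of the kinase or folate genes passed. GMP markers, which include granule proteins, averaged 10.18 to 11.01 in LSK and 12.08 to 12.20 in GMP, 6 of 7 being lower. Mpo averaged 12.54 in LSK and 13.68 in GMP, while Cd34 was higher in LSK, at 10.91 against 9.65. Of 5 macrophage markers tested 2 were lower, and of 3 erythroid markers 2 were higher. Their part was not tested.

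**Figure D4:**
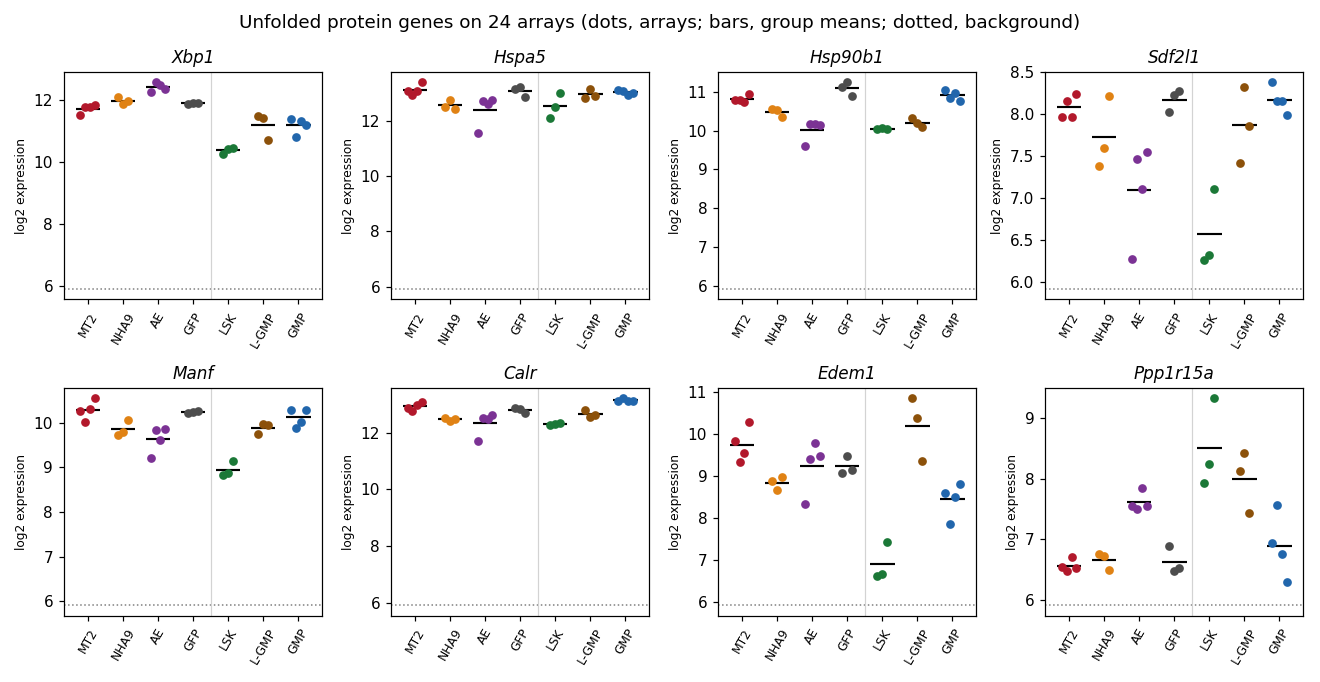
Log2 expression (vertical axes, each with its own range) of 8 genes on the 24 arrays, with 1 dot per array, a bar at each group mean and a dotted line at the background level of 60 (5.91). Xbp1 is highest in AE (mean 12.40) and lowest in LSK (10.38), and AE 1 is the low dot for Hspa5 at 11.57.

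L-GMP against GMP compared leukemic with normal sorted GMP. Of 34 members tested 3 rose and 1 fell (8.82% and 2.94%), against 3.62% and 1.61% of all genes tested. The median difference was −0.14 for the members and 0.03 for all genes. Asns stood at 8.74, 9.02 and 8.97 in L-GMP, against 7.56, 7.17, 7.47 and 8.05 in GMP, 2.54-fold higher (1.35, SE 0.24, adjusted p = 0.0143). Edem1 stood at 10.84, 10.37 and 9.36 in L-GMP, against 8.59, 7.84, 8.50 and 8.81 in GMP, 3.37-fold higher (1.75, SE 0.37, adjusted p = 0.03). Both groups of arrays lay apart for these genes, and the other probe set of each read 1.85 and 1.59. Nupr1 stood at 6.99, 6.95 and 4.95 in L-GMP, against 4.48, 4.47, 4.36 and 4.17 in GMP, so L-GMP 3 was under background as well, and the rise was at least 1.31-fold (adjusted p = 0.0461). Chdh stood at 8.02, 9.11 and 6.82 in L-GMP, against 10.24, 9.64, 10.14 and 10.27 in GMP, 4.26-fold lower (−2.09, SE 0.46, adjusted p = 0.0363). It varied over more than 2 units among the leukemic arrays.

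Atf4 stood at 10.59, 10.91 and 10.95 in L-GMP, against 10.12, 10.59, 10.18 and 10.10 in GMP (0.57, SE 0.21, adjusted p = 0.186). Ddit3 differed by 0.63 (adjusted p = 0.124), Xbp1 by 0.02 (adjusted p = 0.979) and Hspa5 by −0.08 (adjusted p = 0.87). All 5 tested regulators lay above 0 (Nupr1 passed), and 12 of 13 folding genes lay below it without a call on the probe sets used here. Dnajc3 read −0.44 there, but −1.31 (adjusted p = 0.0345) and −0.85 (adjusted p = 0.0499) on other probe sets that passed. Phgdh showed how L-GMP 1 differs, with 9.34 there, 11.34 and 11.08 on the other L-GMP arrays, and 11.14 to 11.51 in GMP. Psat1 (9.03, then 10.79 and 10.60) and Shmt2 (8.10, then 9.70 and 9.45) were low on the same array. None of the 4 calls held with every array left out: without GMP 1 or without GMP 3 no member passed, without GMP 2, GMP 4 or L-GMP 2 only 1, and with the methods' t-test 0. Without L-GMP 1, 4 members were called, namely Asns (1.43, adjusted p = 0.011), Edem1 (1.43, adjusted p = 0.039), Chdh (−2.11, adjusted p = 0.0441) and Hsp90b1 (−0.77, adjusted p = 0.0345). Nupr1 was not tested there, since only L-GMP 2 was then over background. Among the other lists, 4 of 31 ER genes fell and 0 rose (Pdia5, Ssr3, Ssr2 and Sec24d, by 0.87 to 1.49), Cebpb (1.70) and Ddit4 (1.75) rose among 13 amino acid response genes, and no synthetase, kinase or folate gene passed. Macrophage markers averaged 7.24 to 8.38 in L-GMP and 6.77 to 7.36 in GMP, 2 of 6 tested being higher. Mature neutrophil markers averaged 7.29 to 11.02 in L-GMP and 9.92 to 10.59 in GMP, none of 7 passing at a median difference of −1.86. Mast cell and basophil markers averaged 4.64 to 5.83 in L-GMP and 5.97 to 6.26 in GMP, 1 of 2 being lower. Their part was not tested.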

How the data were processed

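Messenger RNA of 24 samples in 7 groups was read on Mouse Genome 430A 2.0 arrays. The authors made their array files with MAS5, per the series' design text, and summarised probe sets with GCRMA 2.4.1, per the submitters' processing notes. The deposited values are log2 expression, from 1.72 to 14.39, and RNA of all samples was amplified together, per the labels' protocols. The number of arrays limits the precision.

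From these values, 22626 probe sets were kept after 64 controls were left out. Of them 20380 carry 1 gene symbol in the platform annotation, 691 several and 1555 none. Each gene was read by its single-symbol probe set of highest mean over 24 arrays. Of the members, 17 have 1 probe set and 26 several. Among the probe sets used, 5 carry the suffix x and 6 the suffix s, which mark probes that may read several transcripts.

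Probe sets over 60 on at least 2 arrays of a compared group were tested with limma 3.58.1 in R 4.3.3, with Benjamini-Hochberg adjustment over all probe sets tested and a threshold of 0.05. Comparisons with GFP or GMP were fitted to their own arrays, and those between oncogenes in 1 fit to 14 arrays. The intervals given cover 95%. Shares of all genes called count genes as members were counted. Counts and medians of the gene lists stand without a list test. The fit was tested on simulated data.

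The members and the gene lists were chosen with earlier results of these data known. By the rule for named genes, every member may be named, the 5 called members of smallest adjusted p in each direction are given by array, Atf4, Ddit3, Asns, Xbp1 and Hspa5 are given in each comparison, up to 4 called genes are named per list, and for Atf4 and Asns the 3 members of highest correlation are named. Other members are given by value, count or range.

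Alternatives were quantile normalization, no filter, the methods' t-test (the unequal-variance test that the design text names), the mean of a gene's probe sets, tag A alone, the tag as a factor, a replicate block, the mean of 3 group means, and each array left out.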

Additional observations from a re-analysis of the deposited data

Results flagged for a closer look

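Among 129 pairs of a member and a group of 4 arrays, 8 had an array far from the other 3 by Dixon's criterion, which chance alone would do in about 1 of 20 pairs. Of these values 4 were on AE 1, where Hspa5 read 11.57 (others 12.61 to 12.77), Hsp90b1 9.61 (others 10.15 to 10.17), Calr 11.70 (others 12.49 to 12.62) and Pdia6 10.69 (others 11.54 to 11.62), all of them ER folding genes and all low. On AE 3 Ppp1r15a read 7.85 (others 7.50 to 7.55). On GMP 2 Shmt2 read 8.58 (others 9.22 to 9.31) and Calr 13.21 (others 13.11 to 13.13). On GMP 4 Slc7a5 read 8.47 (others 7.69 to 7.77). AE 1 is also the only AE array with tag A, so the array and its tag cannot be told apart.

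The responses to 2 oncogenes differed, by the limma contrast between them, for 21 members in MT2 against AE. The higher ones in MT2 were Cth (2.77), Chdh (2.26), Asns (1.32), Phgdh (1.16), Mthfd2 (1.08), Shmt2 (1.06), Sdf2l1 (0.98), Psat1 (0.96), Aldh18a1 (0.94), Slc7a5 (0.86), Psph (0.83), Hsp90b1 (0.80), Hspa5 (0.71), Manf (0.65), Canx (0.62), Calr (0.60), Slc3a2 (0.59) and Pdia6 (0.52). The lower ones were Ppp1r15a (−1.05), Xbp1 (−0.69) and Slc7a11 (−0.53). In NHA9 against AE 7 members differed: Cth (1.75), Chdh (1.62), Asns (1.02) and Psat1 (0.58) were higher in NHA9, and Slc7a11 (−1.06), Ppp1r15a (−0.95) and Xbp1 (−0.44) lower. Values are log2 differences, all with a limma adjusted p under 0.05.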

How the results depend on the processing

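Counts of members called moved beyond 1.5 times as follows. In MT2 against GFP, 7 calls became 12 with the mean of probe sets, 4 with quantile normalization, 3 within tag A, and 0 with the methods' t-test or the tag as a factor. In AE against GFP, 8 became 17 within tag A, 14 with the tag as a factor and 0 with the methods' t-test. In NHA9 against GFP, 0 became 2 within tag A, and for all oncogenes against GFP 0 became 1 with the tag as a factor and 1 with the mean of 3 group means. In MT2 against NHA9, 0 became 4 with the mean of probe sets, 1 with quantile normalization, 10 within tag A and 1 with the tag as a factor. In NHA9 against AE, 7 became 12 within tag A, 3 with the tag as a factor and 0 with the methods' t-test. The methods' t-test called 5 in MT2 against AE (limma 21), 6 in LSK against GMP (limma 16), 0 in L-GMP against GMP (limma 4) and 5 in GFP against GMP (limma 14). The tag as a factor called 9 in L-GMP against GMP. The causes were not tested.

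Directions were followed under every setting for Atf4, Ddit3, Asns, Xbp1 and Hspa5 and for a part of the other called members. Those that turned are given next, and none of them had passed in the results as reported. With the mean of probe sets Atf4 read −0.09 in MT2 against GFP, −0.12 in NHA9 against GFP, −0.15 in LSK against GMP and −0.01 in L-GMP against GMP, Xbp1 read −0.01 in NHA9 against GFP, and Asns 0.02 for all oncogenes against GFP. Within tag A Hspa5 read −0.06 in MT2 against GFP, Atf4 0.01 in AE against GFP, −0.01 in MT2 against NHA9 and −0.06 in LSK against GMP, and for all oncogenes against GFP Atf4 read 0.15, Asns 0.25 and Xbp1 −0.01. With the tag as a factor Hspa5 read −0.09 in MT2 against GFP, and Atf4 0.00 in NHA9 against GFP and 0.02 for all oncogenes against GFP. With the mean of 3 group means Asns read 0.01 there, and with quantile normalization Xbp1 read −0.04 in L-GMP against GMP. Over all members, quantile normalization turned 18 of 389 differences, none of them called and none over 0.10 in size. With the mean of probe sets Shmt1 read 0.36 in MT2 against GFP, in place of −0.34 (limma adjusted p = 0.0469).

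With each array left out, calls ran from 0 to 5 in MT2 against GFP, 0 to 2 in NHA9 against GFP, 5 to 13 in AE against GFP, 0 to 1 in MT2 against NHA9, 4 to 11 in NHA9 against AE, 9 to 18 in LSK against GMP and 0 to 4 in L-GMP against GMP. Signs turned for Atf4 in MT2 against GFP (−0.09 to 0.21), NHA9 against GFP (−0.16 to 0.18), all oncogenes against GFP (−0.29 to 0.02), MT2 against NHA9 (−0.08 to 0.19) and LSK against GMP (−0.01 to 0.26). They turned for Asns for all oncogenes against GFP (−0.25 to 0.14) and in LSK against GMP (−0.20 to 0.15), for Ddit3 in MT2 against NHA9 (−0.27 to 0.32) and NHA9 against AE (−0.53 to 0.06), for Hspa5 in MT2 against GFP (−0.07 to 0.10), NHA9 against AE (−0.14 to 0.27) and GFP against GMP (−0.02 to 0.15), and for Xbp1 in L-GMP against GMP (−0.12 to 0.27).

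The sources used here do not tell whether the replicate numbers pair the samples. In no comparison did every same-numbered pair correlate over 0.1, but so few arrays cannot exclude pairing. With the replicate number as a block, 3 members were called in MT2 against GFP and 2 in L-GMP against GMP, Hspa5 read −0.06 in MT2 against GFP, and Asns read 0.09 in LSK against GMP.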
